A study of Mus musculus with 8 samples.

Results

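Carbonic anhydrases catalyse the interconversion of carbon dioxide and water with bicarbonate and a proton. The family is spread over cell compartments: some members are cytosolic, one pair is mitochondrial, others sit in the plasma membrane with the active site facing outwards, one is secreted, and a few have lost catalytic activity. In exocrine glands, bicarbonate made by these enzymes is carried across the cell membranes by bicarbonate transporters and sets the pH and volume of the secreted fluid, and the secreted enzyme, CA6, is a known protein of saliva and tears. The genes described here are the 10 mouse carbonic anhydrase genes Car2, Car4, Car5b, Car6, Car8, Car9, Car11, Car12, Car13 and Car14, taken by their symbols from the table of counts. They were 10 of the 24552 genes listed there and 10 of its 16 carbonic anhydrase genes.

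The samples were lacrimal glands (LG) of female mice, given in the study's methods as inbred C57BL/6J. Calorie restriction (CR) by 40% for 4 months, begun at 6 to 7 months of age, was compared with ad libitum feeding (AL) over the same 4 months, so that both groups were taken at 10 to 11 months (4 CR and 4 AL libraries, named here AL1 to AL4 and CR1 to CR4). RNA was sequenced from transcript 3′ ends, 1 library per sample. The methods describe 2 cohorts with different chow, and the labels do not say from which cohort a library came. In the second cohort the CR chow also held 40% more vitamins and micronutrients than the AL chow. For libraries of that cohort, restriction and chow cannot be told apart. The series description counts n in mice, as many per diet as there are libraries. In such bulk tissue, fewer cells of a type and less RNA per cell cannot be told apart.

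Totals ranged from 12051881 to 22156511 counts per library. Levels are CPM, counts per 1000000 of the library size after scaling by relative log expression (RLE) factors, and 3 counts, taken as the floor of detection, correspond to 0.152 to 0.231 CPM. All 8 lacrimal markers were detected in every library, with a summed level of 415151 to 539138 CPM in AL and 204575 to 507168 CPM in CR. The medians were 476298 CPM in AL and 235968 CPM in CR, where CR4 held the highest sum. Of the 8, 7 had lower estimates in CR, and DESeq2 called 1 lower (Ltf) and 1 higher (Sox10). The 5 leukocyte markers summed to 42.1 to 159 CPM in AL and 19.9 to 32.6 CPM in CR. Of these, 2 were tested, and DESeq2 called both lower while edgeR called 0. Markers of the parotid gland, a salivary gland that lies beside the exorbital LG, were present as well. Their 6 genes summed to 237 to 23502 CPM in AL (median 11283 CPM) and 17896 to 230419 CPM in CR (median 197437 CPM). The diets overlapped through CR4 alone, which held the lowest CR sum (17896 CPM). All 6 had higher estimates in CR. By edgeR 3 of them were called (Prb1, Prp2 and Prh1), and by DESeq2 all 6. The 6 submandibular and sublingual markers summed to 1.73 to 478 CPM in AL and 250.2 to 5578 CPM in CR, with Smgc at 0 counts. By edgeR Dcpp3 was called higher (log2 fold change 5.04, edgeR adjusted p = 0.0423) and Dcpp1 not (3.95, 0.112). DESeq2 called both higher (adjusted p = 0.00641 for Dcpp3 and 0.0454 for Dcpp1). The part of these markers in the results was not tested. Because CA6 is also a parotid product, the parotid levels are given below beside each carbonic anhydrase that moves with them. Their part in these results was not tested. A fit below holds a parotid score as a covariate, but that score was higher in every CR than in every AL library. Diet and score cannot be told apart in it.

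Of the 10 carbonic anhydrase genes, Car6 dominated in every library and was higher in all 4 CR libraries than in any AL library. Car2 was the 1 gene that was called, meaning that it changed at least 1.5-fold and had an adjusted p (edgeR quasi-likelihood, Benjamini-Hochberg) below 0.05. That test covered 11211 genes, of which 1.20% were called higher in CR and 0.785% lower. It covered 5 carbonic anhydrases (Car2, Car5b, Car6, Car8 and Car12), and 4 of the 5 log2 fold changes were above 0. Their median was 0.77, beside 0.01 over all tested genes. Before adjustment, 3 of the 5 were higher with p below 0.05 (Car2, Car6 and Car12) and 0 were lower, beside 8.62% and 8.10% of all tested genes. Of the 5, 2 (Car6 and Car12) had all CR libraries above all AL libraries and 0 had them all below, beside 4.58% and 5.20% of all tested genes. DESeq2 gave an adjusted p for 8 of the 10 genes (NA for Car9 and Car14) and called 3 of them higher (Car2, Car6 and Car11) and 0 lower, beside 2.97% and 2.26% of the genes for which it gave an adjusted p. The other 5 genes, Car4, Car9, Car11, Car13 and Car14, had too few counts to enter the edgeR test.

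**Figure D1:**
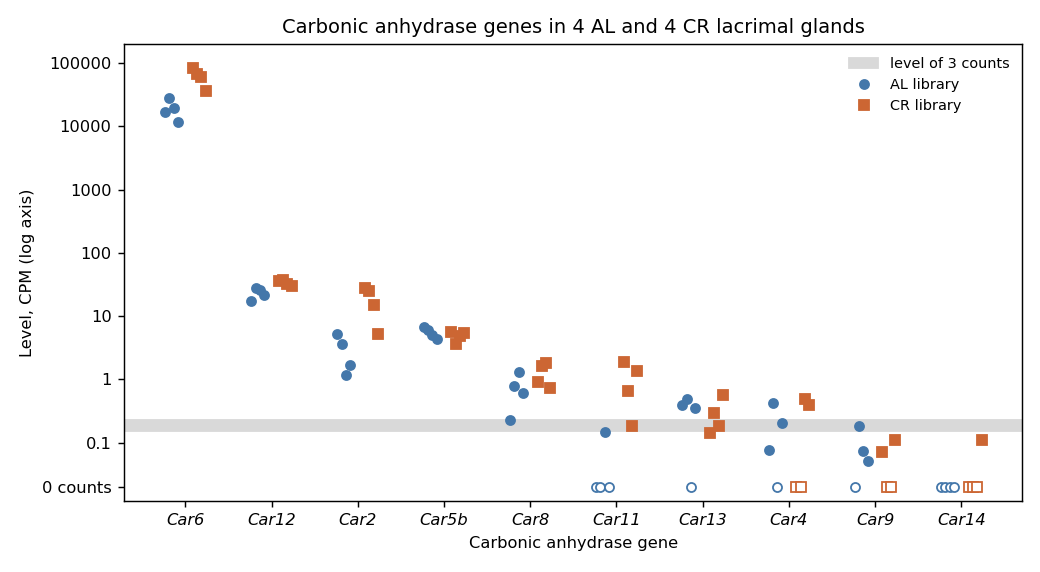
Level of each of the 10 carbonic anhydrase genes in each library, in CPM on a log axis. Circles are the 4 AL and squares the 4 CR libraries, open symbols at the bottom mark 0 counts, and the grey band is the level of 3 counts (0.152 to 0.231 CPM). Car6 stands at 11790 CPM or more in every library, and Car9 and Car14 stay at or under the band.

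Because 3′ sequencing reads 1 site at the end of each transcript, its counts do not grow with transcript length, and levels can be set beside each other between genes, apart from differences in how well each 3′ end is captured. On that scale the mean CPM in AL ran from Car6 (19148 CPM) through Car12 (23.2 CPM), Car5b (5.48 CPM) and Car2 (2.92 CPM) to Car8 (0.737 CPM). In CR the order was Car6 (61462 CPM), Car12 (33.7 CPM), Car2 (18.1 CPM), Car5b (4.82 CPM) and Car8 (1.26 CPM), so Car2 and Car5b changed places. In AL the ranges of Car2 and Car5b overlapped, as they did in CR, where CR4 held Car2 at 5.16 CPM.

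Car6 encodes the secreted member of the family. It lies at chr4:150187015-150201332 on the minus strand of GRCm38 and shares no 75-base stretch of its last 600 transcript bases with another annotated gene. In AL its level was 16920, 28507, 19375 and 11790 CPM, and in CR it was 82816, 67417, 59066 and 36549 CPM. The groups did not overlap: the lowest CR library, CR4, was above the highest AL library, AL2. The mean was 19148 ± 6994 CPM in AL and 61462 ± 19303 CPM in CR (SD, n = 4 each), a ratio of 3.21 (two-sided exact permutation p = 0.0286, the smallest that 4 against 4 allow).

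In counts, Car6 alone took 1.51%, 2.89%, 2.21% and 1.05% of each AL library and 8.12%, 6.77%, 6.95% and 3.41% of each CR library. The share was 1.91% ± 0.807 in AL and 6.31% ± 2.03 in CR (SD, n = 4 each; two-sided exact permutation p = 0.0286). Ordered by counts, Car6 was gene 12, 9, 9 and 12 of the 4 AL libraries and gene 3, 2, 2 and 9 of the 4 CR libraries. It held 99.8% to 99.9% of the counts of the 10 genes in every library.

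The call for Car6 differed between tools and settings. Its log2 fold change was 1.68 with a standard error of 0.51 (95% interval 0.57 to 2.80), and edgeR's quasi-likelihood test gave an unadjusted p of 0.00644 and an adjusted p of 0.115, short of the threshold. DESeq2, the tool the study used, gave 1.69 and an adjusted p of 1.41e-06. Of the 19 other settings tried, 5 called Car6 (DESeq2, robust dispersion in edgeR, limma voom, the replicate block and the fit without CR4), and its adjusted p ranged from 1.41e-06 to 0.830 over them. Without CR4, the CR library with the lowest Car6, the log2 fold change was 1.87 and the edgeR adjusted p 0.0200. The direction was the same in all of these settings. Over the tested genes, CR4 differed less from the AL libraries (chi-squared per degree of freedom 90.4 to 148) than from CR1, CR2 and CR3 (637 to 779). Genes with many counts lead this measure. The study describes a CR sample of intermediate expression as a possible outlier and does not name it.

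**Figure D2:**
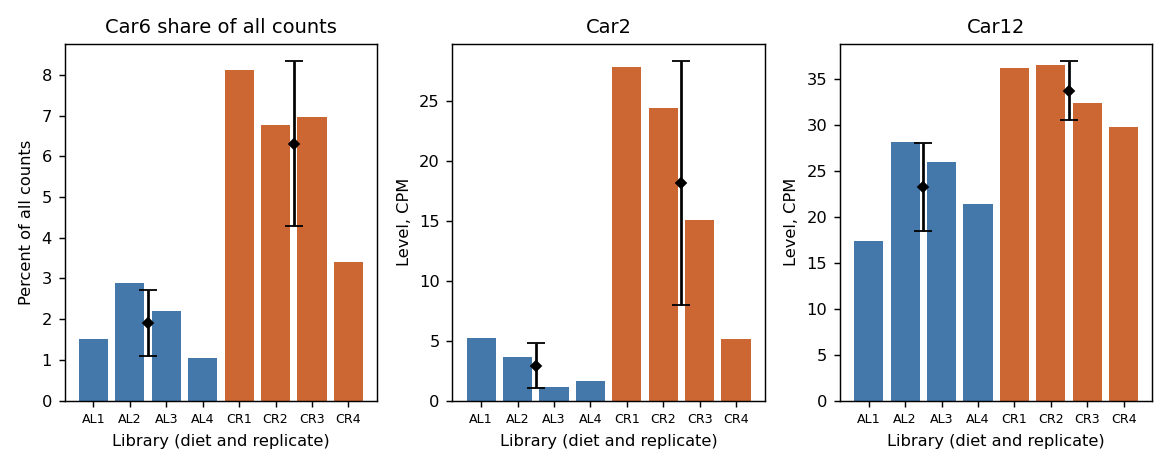
Car6 as a percentage of all counts, and the levels of Car2 and Car12 in CPM, in each library (AL1 to AL4 and CR1 to CR4). Bars are single libraries, and the diamond with its error bar is the mean ± SD of a diet. All 4 CR bars stand above all 4 AL bars for Car6 and Car12, while for Car2 the CR4 bar (5.16 CPM) lies just under AL1 (5.24 CPM).

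Sequence is shown for Car6 and Car12, the tested carbonic anhydrases whose CR levels all lay above AL: for Car6 the 30 bases around CACGTG, and for Car12 the promoter from 250 bases before to 50 bases after its start (RefSeq starts, GRCm38.p6; 5′ to 3′ on the gene's strand). Capitals mark CACGTG, the E-box letters, which transcription factors such as CLOCK with BMAL1 or MYC with MAX are known to bind.
Car6, chr4:150201267-150201296, minus strand: gaggaggtgaggCACGTGcacaggcaccaa
Car12, chr9:66713436-66713735, plus strand: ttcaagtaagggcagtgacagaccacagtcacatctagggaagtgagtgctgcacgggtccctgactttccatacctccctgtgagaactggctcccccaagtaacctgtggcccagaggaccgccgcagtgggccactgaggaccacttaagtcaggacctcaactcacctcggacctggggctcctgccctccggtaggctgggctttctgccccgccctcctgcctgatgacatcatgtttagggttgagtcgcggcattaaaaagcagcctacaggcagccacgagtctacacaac
A promoter was found for 7 of the 10 genes, and 3 motifs were searched on both strands. CACGTG stood in the Car6 promoter alone among these 7 genes, 149 bases before the RefSeq start, and in 7.15% of the 32851 mouse promoters of the same length. The GENCODE gene model of Car6 starts 197 bases further upstream than RefSeq's, and by that model CACGTG lies in an exon, 48 bases after the start. For Car12 both annotations give the same start. ACGTG, the core of the hypoxia response element, is contained in CACGTG on both strands, and it also stood in the promoters of Car4, Car9 and Car14 (19.6% of all promoters). TATAAA, the TATA box, stood in that of Car4 only (13.6% of all promoters). The Car12 window held none of the 3 motifs.

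The libraries differed in how much Car6 and how much parotid marker RNA they held. Bpifa2, a parotid secretory protein, measured 17744, 9816, 7918 and 190 CPM in AL and 167976, 165198, 151207 and 13700 CPM in CR. AL4 had the lowest level of both genes among the 8 libraries, with 190 CPM of Bpifa2 and 11790 CPM of Car6, and CR4 had the lowest of both within CR. CR4 held 13700 CPM of Bpifa2, less than AL1 (17744 CPM), and 36549 CPM of Car6 beside 16920 CPM in AL1. Amy1, salivary amylase, also lay within the AL range in CR4 (3277 CPM against 45.4 to 5630 CPM in AL). The other 4 parotid markers were above every AL library in CR4: Prb1 measured 419 CPM against at most 90.5 CPM in AL, Prh1 361 against 9.25 CPM, Prpmp5 77.5 against 27.0 CPM and Prp2 62.0 against 1.23 CPM. The ratio of Car6 to Bpifa2 was 0.954 to 62.0 in AL and 0.391 to 2.67 in CR.

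After the mean of each diet was subtracted, log2 Car6 followed Bpifa2 over the 8 libraries with a Pearson r of 0.79, Amy1 with 0.78, Prb1 with 0.52 and the mean log2 level of the 6 parotid genes with 0.60. Of the adipocyte markers, it followed Adipoq with 0.77 and Cfd with 0.24, and it followed Dcpp1, a demilune cell product of the sublingual gland, with 0.77. Of the lacrimal markers, Car6 followed Sox10, a transcription factor of acinar cells and glia, with 0.80, but the secretory products Obp1a with -0.52, Mucl2 with -0.66, Scgb2b2 with -0.60 and Lcn11 with -0.57. Sox10 was also the 1 of the 8 lacrimal markers with a higher estimate in CR (log2 fold change 2.13, edgeR adjusted p = 0.00746). Car6 followed Slc4a4, the sodium bicarbonate cotransporter, with an r of -0.70. These correlations share libraries, depth and the make-up of the tissue, and are given as a description. When the mean log2 level of the 6 parotid genes entered the fit, the log2 fold change fell to 0.72 with a standard error of 1.01 for Car6 and 0.56 with 0.87 for Car2, and neither was called (edgeR adjusted p = 0.830 and 0.850). That score was itself higher in all 4 CR libraries (9.14 to 12.9) than in the AL libraries (0.983 to 6.92), so that diet and score cannot be told apart in this fit. Over all genes it left 4 called higher and 0 lower.

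**Figure D3:**
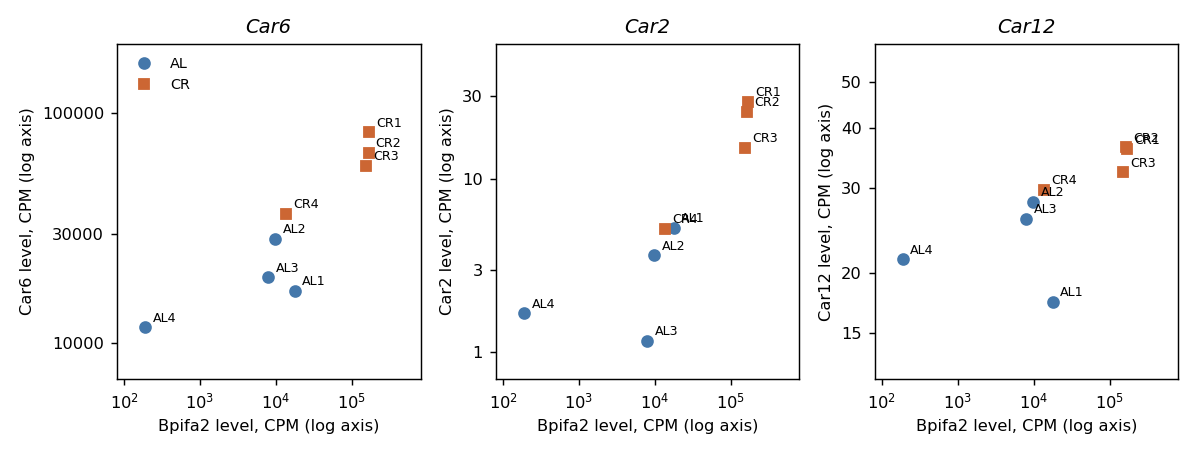
Levels of Car6, Car2 and Car12 against the level of the parotid marker Bpifa2 in each library, in CPM on log axes, with AL as circles and CR as squares. CR4 lies within the AL range on the Bpifa2 axis, above all AL libraries for Car6 and Car12 and within the AL range for Car2.

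Car2 encodes the highly active cytosolic enzyme that most tissues share. It was counted 68, 59, 16 and 33 times in AL and 394, 413, 244 and 93 times in CR, or 5.24, 3.62, 1.17 and 1.67 CPM against 27.9, 24.5, 15.1 and 5.16 CPM. CR1, CR2 and CR3 lay above every AL library and CR4 lay within the AL range. The mean rose from 2.92 ± 1.87 CPM to 18.1 ± 10.2 CPM (SD, n = 4 each). The log2 fold change was 2.64 with a standard error of 0.54 (95% interval 1.47 to 3.81), and the edgeR adjusted p was 0.0326. For the means alone the two-sided exact permutation p was 0.0571.

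The Car2 call depended on which libraries were used. Leaving out 1 library at a time gave log2 fold changes of 2.37 to 3.07 and edgeR adjusted p of 0.00163 to 0.116, and the call was kept without AL1 (0.0438) or CR4 (0.00163) and lost without AL2 (0.0930), AL3 (0.0759), AL4 (0.0619), CR1 (0.0673), CR2 (0.116) or CR3 (0.0726). Within diets Car2 followed Bpifa2 with an r of 0.65, Dcpp1 with 0.69, Car6 with 0.66 and the adipocyte markers Cfd with 0.74 and Adipoq with 0.58 (8 libraries). The genes most like it were Thap3 (r = 0.99), Appl2 (0.97), Trim33 (0.97), Dsg2 (0.96) and Gm10863 (0.96), and none of these 5 was called. With 8 libraries, 56 of 11210 genes reached an r of 0.9 with Car2. Red blood cells also carry CA2: the 4 globin genes listed (Hba-a1, Hba-a2, Hbb-bs and Hbb-bt) were at 0 counts in all libraries, where reads of near-identical globin copies may have been left uncounted, and Alas2, the erythroid heme synthesis enzyme, ran from 1.62 to 8.89 CPM in AL and 1.70 to 8.11 CPM in CR.

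Car2 lies at chr3:14886273-14900770 in a cluster of carbonic anhydrase genes that spans 259 kb from the start of Car13 to the end of Car2. Its nearest neighbour in it is Car3, 13.7 kb away, which encodes a cytosolic enzyme of low activity known from fat, muscle and liver and is no member of the 10. Car3 measured 1.54, 1.96, 0.947 and 3.75 CPM in AL and 15.9, 19.2, 17.6 and 6.89 CPM in CR, with every CR library above every AL library. Its log2 fold change was 2.83 with a standard error of 0.42 (edgeR adjusted p = 0.00697), and it was called without each of the 8 libraries in turn. The 6 white adipose markers summed to 7.51 to 18.0 CPM in AL and 23.4 to 93.9 CPM in CR. Of these, 4 were tested, all with higher estimates in CR, and edgeR called 1 (Fabp4). In edgeR 3 had an unadjusted p below 0.05, and DESeq2 called 2 (Adipoq and Fabp4). The 5 skeletal muscle markers summed to 0.797 to 9.86 CPM in AL and 2.19 to 57.0 CPM in CR; 4 were tested, with log2 fold changes of 1.86 to 2.47, and edgeR called 0 (2 had an unadjusted p below 0.05, and DESeq2 called 0). The part of either tissue in the Car3 result was not tested. Of the other genes of the cluster, Car13 had 20 counts over the AL and 20 over the CR libraries, and Car1 had 0 counts.

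Of the membrane enzymes among the 10 genes, Car12 alone was tested by edgeR. It is a transmembrane enzyme of secretory epithelia at chr9:66713686-66766845, and its human counterpart is known for a disorder of salt loss in sweat. Its level was 17.4, 28.2, 25.9 and 21.4 CPM in AL and 36.2, 36.5, 32.4 and 29.8 CPM in CR. The groups did not overlap, as was true with CR above AL for 4.58% of all tested genes, but CR4 (29.8 CPM) stood close to AL2 (28.2 CPM). The mean was 23.2 ± 4.79 CPM in AL and 33.7 ± 3.22 CPM in CR (SD, n = 4 each; two-sided exact permutation p = 0.0286). The log2 fold change was 0.54 with a standard error of 0.18 (95% interval 0.14 to 0.94), an unadjusted p of 0.0126 and an edgeR adjusted p of 0.154. It stayed uncalled under all 19 other settings, with log2 fold changes of 0.43 to 0.64.

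Of the 6 keratins listed as duct markers, Krt18 was the only one above AL in all 4 CR libraries (94.1 ± 15.7 CPM against 149 ± 29.7 CPM; SD, n = 4 each). The log2 fold changes of the other tested keratins were 0.12 for Krt8, -0.05 for Krt14, -0.22 for Krt7 and -0.91 for Krt5, and edgeR called none of the 5 tested keratins, while DESeq2 called Krt18 higher (0.67, adjusted p = 0.0310). Within diets Car12 followed Car6 with an r of 0.69, Krt18 with 0.39 and Bpifa2 with 0.22.

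The other outward-facing enzymes were rare. Car4, held to the membrane by a lipid anchor and known from capillary endothelium, had 1, 7, 0 and 4 counts in AL and 0, 0, 8 and 7 in CR (two-sided exact permutation p = 0.914). Endothelial markers summed to 9.39 to 13.6 CPM in AL and 13.4 to 18.6 CPM in CR. Car9, a classical target of the hypoxia-inducible factors (HIF), had 0, 3, 1 and 1 counts in AL and 1, 0, 0 and 2 in CR, at or under the floor of 3 counts throughout. Car14 had 2 counts in CR4 and 0 elsewhere. For these genes a difference was not detectable at this depth.

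Among the remaining enzymes inside the cell, Car5b did not pass the test. It encodes the mitochondrial form found outside the liver, which supplies bicarbonate to carboxylases. It measured 6.63, 5.95, 5.03 and 4.31 CPM in AL and 5.52, 3.55, 4.89 and 5.33 CPM in CR, and the groups overlapped. The log2 fold change was -0.18 with a standard error of 0.26 (95% interval -0.74 to 0.38; edgeR adjusted p = 0.801). Cytosolic Car13 had 5, 8, 0 and 7 counts in AL and 2, 5, 3 and 10 in CR.

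The family also holds proteins related to the enzymes that lack catalytic activity, Car8 and Car11. Car8 binds the inositol trisphosphate receptor, the calcium release channel on which fluid secretion depends. Its level was 0.231, 0.797, 1.31 and 0.609 CPM in AL and 0.920, 1.60, 1.80 and 0.722 CPM in CR, with overlapping groups. The log2 fold change was 0.77 with a standard error of 0.58 (95% interval -0.49 to 2.02; edgeR adjusted p = 0.564). All 3 inositol trisphosphate receptor genes were tested and 0 were called, 0 had an unadjusted p below 0.05 and DESeq2 called 0, with log2 fold changes of -0.13 for Itpr1, 0.18 for Itpr2 and 0.32 for Itpr3.

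Car11 was nearly absent in AL, with 0, 0, 2 and 0 counts, and was counted 27, 11, 3 and 24 times in CR, or 1.91, 0.651, 0.186 and 1.33 CPM. Every CR library was above every AL library, by 1 count between CR3 and AL3. Set against the floor of 3 counts in each AL library, its observed mean level was 5.19-fold higher in CR. That ratio makes no allowance for the spread in CR (0.186 to 1.91 CPM), and CR3 was itself at the floor. For the means the two-sided exact permutation p was 0.0286, which rests on 3 counts in CR3 against 2 in AL3. With no filter on low counts the log2 fold change was 4.64 and the edgeR adjusted p 0.0467, and DESeq2 gave 4.95 and 0.00962. When leaving out AL1, AL3 or CR3 let it enter the edgeR test, it passed the filter through its CR counts and was not called (log2 fold changes 4.37, 7.06 and 5.01, edgeR adjusted p = 0.129, 0.0768 and 0.0618).

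Car11 ends 405 bases before the annotated start of Dbp on the same strand of chromosome 7, at chr7:45699843-45704682. Dbp, a clock output gene, was counted 16, 59, 36 and 88 times in AL and 427, 766, 492 and 757 times in CR. The 2 genes share no exon in the annotation. Whether any Car11 reads came from transcription around Dbp was not tested.

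**Figure D4:**
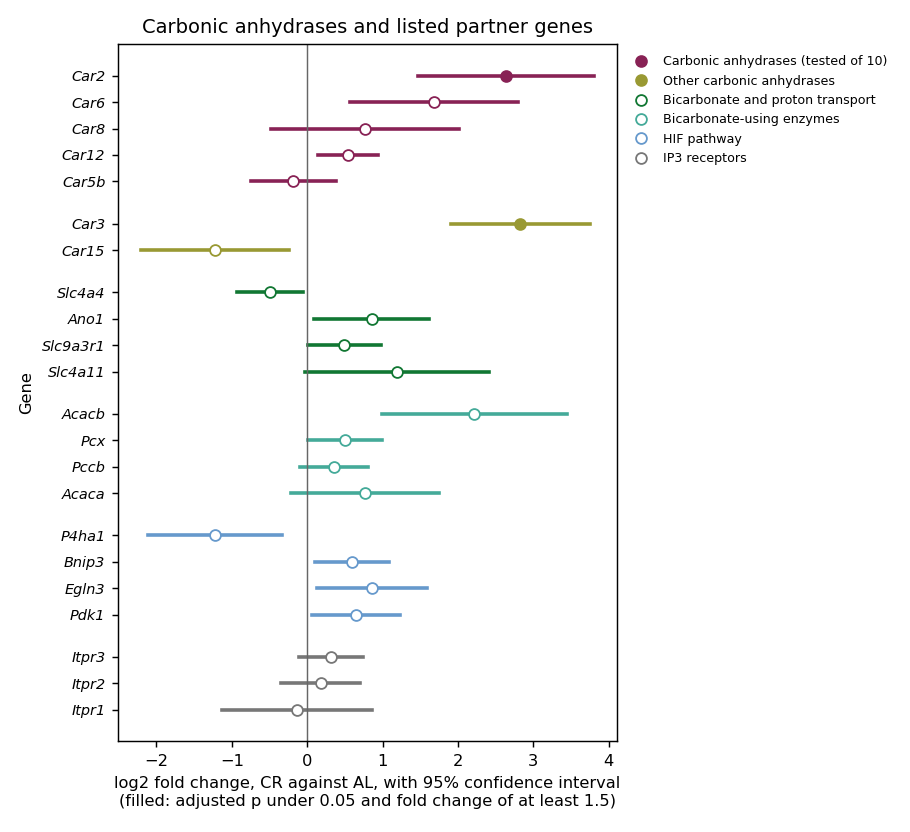
Log2 fold change of CR against AL with its 95% confidence interval for the 5 tested carbonic anhydrases of the 10, for the other tested carbonic anhydrases Car3 and Car15, and for up to 4 genes with the smallest p of each partner list. Filled circles passed both thresholds in the edgeR test: Car2 (2.64) and Car3 (2.83).

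In the lists of genes that work with these enzymes, edgeR called 0 genes. Bicarbonate and proton transport was represented by 25 genes, of which 9 were tested. Of these, 0 were called by edgeR and 0 by DESeq2, before adjustment 2 had p below 0.05 with a higher and 1 with a lower level in CR, and the median log2 fold change was 0.10. Slc4a4, which brings bicarbonate into acinar and duct cells, had a log2 fold change of -0.50 with a standard error of 0.20 (edgeR adjusted p = 0.232). Ano1, the calcium-gated chloride channel of acinar cells, was estimated at 0.86 with 0.35 (0.239), and the scaffold Slc9a3r1 at 0.49 with 0.22 (0.293). Slc4a11, a membrane transporter of the bicarbonate transporter family, was at 1.19 with 0.56 (0.308).

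Cftr, the chloride and bicarbonate channel, is named here after its values were seen. It measured 0, 0.184, 0.364 and 0 CPM in AL and 2.62, 2.49, 2.17 and 0 CPM in CR. CR1, CR2 and CR3 were above every AL library, as for Car2, and CR4 had 0 counts. With all 8 libraries it had too few counts for the filtered edgeR test and was not called without the filter (log2 fold change 3.70, edgeR adjusted p = 0.0838) or by DESeq2 (3.74, adjusted p = 0.244). Without CR4, its lowest CR library, it passed the filter through its CR counts and was called (4.12, edgeR adjusted p = 0.0141). The study lists Cftr in a salivary secretion pathway enriched among its upregulated genes. Why DESeq2 did not call it here was not tested.

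Among 9 enzymes that use bicarbonate as a substrate, 8 were tested. By edgeR 0 were called, and before adjustment 2 were higher with p below 0.05; DESeq2 called 1. Acacb, the acetyl-CoA carboxylase of the mitochondrial surface, measured 0.925, 0.797, 1.02 and 0.812 CPM in AL and 5.66, 6.10, 4.21 and 0.666 CPM in CR. As with Car2, CR4 alone among the CR libraries was not above AL. The log2 fold change of Acacb was 2.22 with a standard error of 0.56 (edgeR adjusted p = 0.0656), and it was called without CR4 (0.00136) and by DESeq2 (0.00453). Over the 19 other settings its log2 fold change ran from 0.80 to 2.58 and its adjusted p from 0.00136 to 0.837. In 4 of them the adjusted p was below 0.05, and it was not called with the parotid score in the fit. Pyruvate carboxylase, Pcx, was at 0.50 with 0.22 (0.284), the cytosolic acetyl-CoA carboxylase Acaca at 0.76 with 0.45 (0.444), and Pccb, a subunit of propionyl-CoA carboxylase, at 0.35 with 0.21 (0.443).

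Since Car9 and Car12 are known HIF targets, 18 genes of that pathway were read as well, and 16 were tested. By edgeR 0 were called and by DESeq2 0, and before adjustment 3 were higher and 1 lower with p below 0.05, the median log2 fold change being 0.06. Egln3, a prolyl hydroxylase that HIF induces, was at 0.86 with a standard error of 0.34 (edgeR adjusted p = 0.213), and without CR4 it was called (1.13, adjusted p = 0.0151). Pdk1, which restrains pyruvate entry into the citric acid cycle, was at 0.65 with 0.27 (0.244), and the mitophagy receptor Bnip3 at 0.59 with 0.23 (0.197). P4ha1, a collagen prolyl hydroxylase, was at -1.22 with 0.41 (0.143), the opposite direction, and without CR4 it was called (-1.77, adjusted p = 0.0116). Hif1a itself measured 9.78 ± 1.70 CPM in AL and 10.2 ± 0.502 CPM in CR (SD, n = 4 each).

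Of the 6 carbonic anhydrase genes outside the 10, Car3 and Car15 were tested. Car15, a membrane-anchored enzyme, was lower in all 4 CR libraries than in any AL library (3.01 ± 0.784 CPM in AL, 1.27 ± 0.627 CPM in CR; SD, n = 4 each), with a log2 fold change of -1.22 (edgeR adjusted p = 0.189). It shares 71.1% of the 75-base windows of its 3′ end with the overlapping gene Gm20518, so its counts are uncertain. Car1 was at 0 counts, and Car5a, Car7 and Car10 stayed too rare to test.

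**Figure D5:**
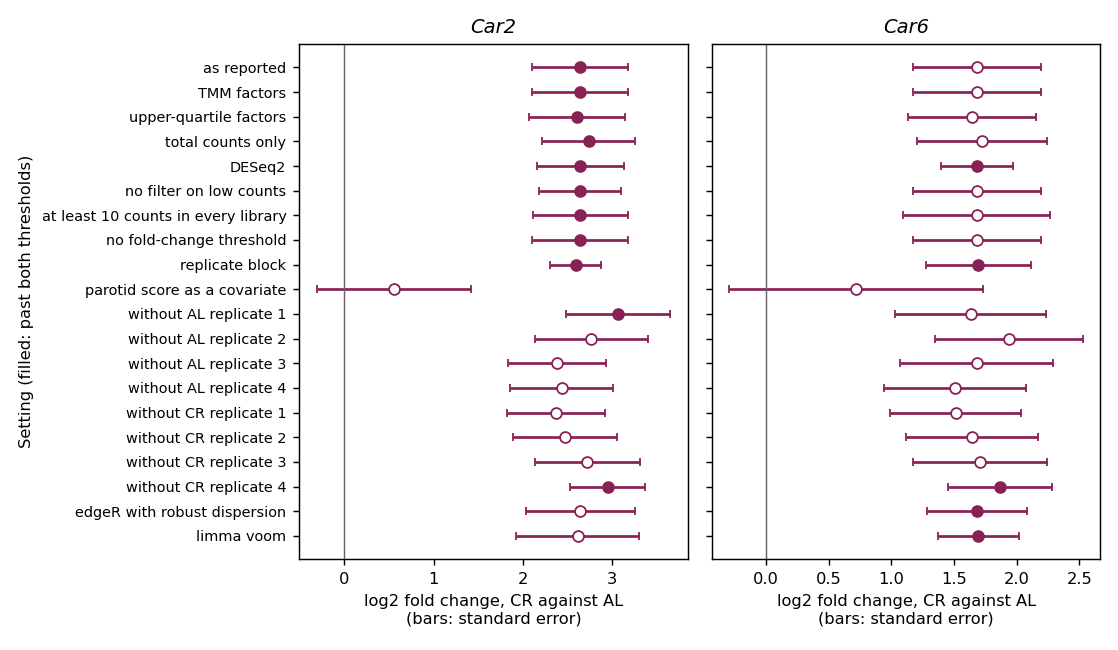
Log2 fold change of Car2 and Car6 with its standard error under the reported setting and each of the 19 others. Filled circles passed both thresholds. All estimates lie above 0, those with the parotid score as a covariate are the lowest (0.56 for Car2 and 0.72 for Car6), and Car2 and Car6 were called together by DESeq2, with the replicate block and without CR4.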

How the data were processed

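Libraries were made with a QuantSeq 3′ kit. The authors trimmed reads with cutadapt, checked them with FastQC, aligned them to mm10 with STAR and deposited counts per gene from HTSeq; versions and strand setting are not given in the sources used here. The deposited log2 values are the counts divided by DESeq2's RLE factor, plus 1; recomputed, they differed by 0 at 9 decimals, and they were not used further.

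The table lists 24557 genes, 5 of them repeated symbols that were dropped, and 16735 had a count. In R 4.3.3, edgeR 4.0.16 fitted all 8 libraries after filterByExpr (11211 genes), with RLE factors and the quasi-likelihood test, adjusting p over all tested genes after Benjamini and Hochberg; each standard error was taken as log2 fold change over the root of F. The common biological coefficient of variation was 34.7%. Rare genes were compared by exact permutation of CPM. Likeness and the parotid score used log2 CPM with a prior count of 2. Alternatives were other scalings, filters, DESeq2 1.42.0, a replicate block, the parotid score, each library left out and, after the data were seen, robust edgeR and limma 3.58.1 voom. Scripts were tested on simulated counts.

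Groups follow the diet in the labels. The genes, lists and tests were chosen with earlier results of these data known. Named are all 10 genes and, of each partner list, called genes and the 4 of smallest p; for genes like a carbonic anhydrase, the 5 of highest r with the called one. Positions and shared windows come from the GENCODE annotation on GRCm38. The floor covers counting error only, while the 95% intervals of fold changes include the spread between libraries.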

Additional observations from a re-analysis of the deposited data

How the results depend on the processing

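No estimate of a tested carbonic anhydrase changed direction in any setting. The number of the 10 genes called higher, 1 as reported, was 3 by DESeq2 (Car2, Car6 and Car11), 2 without a filter on low counts (Car2 and Car11), 0 with the parotid score in the fit, and 0 to 2 with 1 library left out; 0 were called lower in every setting. Robust edgeR and limma voom each called 1, Car6 in place of Car2.

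For Car2 the log2 fold change was 0.56 with the parotid score (edgeR adjusted p = 0.850), 2.64 by robust edgeR (0.0723), 2.61 by limma voom (0.0954) and 2.37 to 3.07 with 1 library left out. For Car6 it was 1.69 by DESeq2 (1.41e-06), 1.68 by robust edgeR (0.0492), 1.69 by limma voom (0.0321) and 1.505 to 1.94 with 1 library left out. The cause of these differences was not tested. Car3 lost its call with the parotid score (3.54, edgeR adjusted p = 0.295), which left 0 of the other carbonic anhydrases called higher.

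Replicate numbers of AL and CR are not stated to mark a shared litter, batch or day, so they were not treated as pairs. Same-numbered libraries deviated together with correlations of 0.149, 0.0795, 0.244 and 0.462, all above 0. AL1, AL2 and AL4, but not AL3, correlated best with their own number. Whether the numbers mark something shared was not tested. With the replicate block, 388 genes were called higher and 312 lower, and 2 of the 10 carbonic anhydrases were higher, Car2 (2.59, edgeR adjusted p = 0.000260) and Car6 (1.69, 0.0345). The block also called Acacb higher, 1 of the enzymes that use bicarbonate (1.92, 0.0489), and P4ha1 lower, 1 of the HIF genes (-1.34, 0.0396).

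Over all genes, 134 were called higher and 88 lower as reported. DESeq2 gave 400 and 305, no filter 271 and 165, limma voom 53 and 51, the parotid score 4 and 0, and scaling by total counts only 51 lower. Leaving out 1 library gave 35 to 453 higher and 25 to 247 lower, the highest of each without CR4. Of the enzymes that use bicarbonate, 1 was higher (Acacb) by DESeq2 (2.23, adjusted p = 0.00453) and with no filter (2.22, edgeR adjusted p = 0.0280), and 0 to 1 with 1 library left out. For bicarbonate transport (Cftr) and for higher (Egln3) and lower (P4ha1) HIF genes, leaving out 1 library gave 0 to 1, with the 1 without CR4.

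Depth limits Car4, Car9, Car13 and Car14, which had 2 to 40 counts over all 8 libraries together. It also limits Car11, which had 67 counts, 3 of them in CR3.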
